A study of Mus musculus with 6 samples.

Results

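The adipocyte genes of whole muscle described here were 10 genes, Adipoq, Plin1, Cfd, Lep, Fabp4, Cidec, Retn, Adrb3, Ucp1 and Pparg. They were taken by symbol, as known genes of the fat cell, and all 10 of them were present among the 24421 genes of the count tables. Bulk RNA-Seq had been performed on gastrocnemius/plantaris (GP) muscle, a mixed hindlimb muscle of the calf, in 3 mice labelled Ctrl and 3 mice labelled cKO. The study deleted Net39, a protein of the nuclear envelope, in adult skeletal muscle. The records give the mice labelled Ctrl as Net39 fl/fl without Cre (Cre-), and the mice labelled cKO as HSACreERT2;Net39 fl/fl. All 6 were male mice on a B6C3F1 background, 5 months old, and had received tamoxifen 3 months earlier. The Cre recombinase was driven by the human skeletal actin promoter, which acts in muscle fibres, so fat cells lying between the fibres were not its intended target. As labelled, Ctrl mice lacked Cre, so an effect of Cre itself and an effect of the deletion cannot be told apart by this design. The Net39 levels given below run against these labels.

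Fat cells in skeletal muscle lie between the fibres and along vessels and nerves, and they arise from fibro-adipogenic progenitors, the mesenchymal cells of the muscle interstitium. Pparg encodes the nuclear receptor that drives adipocyte differentiation, together with factors of the C/EBP family. A mature white adipocyte stores triglyceride in a single droplet coated by perilipin 1 and CIDEC, carries fatty acids on FABP4, and secretes adiponectin, leptin, adipsin and, in mice, resistin. ADRB3 couples noradrenaline to lipid breakdown, and UCP1 dissipates the mitochondrial proton gradient in brown and beige adipocytes. In a whole-muscle library these transcripts come from a minor cell population, and fewer adipocytes and less RNA per adipocyte cannot be told apart.

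The direction of every comparison depends on the labels, so Net39, listed under its older symbol Ppapdc3, was examined first. Its counts were 310, 321 and 217 in Ctrl 1, Ctrl 2 and Ctrl 3, against 5365, 4340 and 6080 in cKO 1, cKO 2 and cKO 3. Net39 was thus low where the label reads Ctrl and high where it reads cKO, the reverse of what the labels say. For this reason groups are named only as labelled, and a positive log2 fold change means a higher level with the label cKO. Libraries held 33860001 to 38201728 counts (labelled Ctrl) and 39191239 to 48839910 counts (labelled cKO), and they were scaled by TMM factors of 1.08 to 1.11 and 0.865 to 0.983, respectively. Levels are given as CPM, the counts scaled to a common library size, and differences were tested with edgeR's quasi-likelihood test over 14180 genes that passed its filter on low counts. Nothing beyond the mouse numbers describes how the animals were paired or processed, so p-values measure the spread between these 6 libraries.

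No adipocyte gene passed the test between the labelled groups. Of the 10, 9 passed the filter and were tested, and 0 of these 9 were called, a call requiring both an adjusted p below 0.05 and a change of more than 2 times. Among all genes tested 6.05% were called, 2.13% with the higher level in the libraries labelled cKO and 3.92% with the higher level in those labelled Ctrl. An adjusted p under 0.05 without the fold limit was reached by 0 of the 9, compared with 24.4% of all genes (12.6% higher with the label cKO, 11.8% higher with the label Ctrl). An unadjusted p under 0.05 was also reached by 0 of the 9, compared with 38.8% of all genes, and DESeq2 called 0 of the 10. In each of the 10 the ranges of the labelled groups overlapped, while the groups did not overlap in 43.9% of all genes tested. Fold changes were above 0 on the log2 scale for 3 of the 9 (Adipoq, Lep and Cidec) and below 0 for 6, with a median of -0.15 beside -0.02 for all genes. Scaling by total counts in place of TMM shifted the latter to -0.27 and the median of the 9 to -0.39, and the 9 genes kept their signs under this scaling. With single libraries left out the median of the 9 ranged from -0.45 (without Ctrl 2) to -0.023 (without Ctrl 3).

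The spread between mice of a labelled group was wide for these genes. The biological coefficient of variation estimated by edgeR had a median of 40.6% over the 9 genes, against 13.5% over all genes tested, and it lay above the latter in 8 of the 9. The highest of the 6 libraries exceeded the lowest by more than 3 times in 7 of the 9, which was the case for 13.1% of all genes. Fabp4 and Pparg were the exceptions. Thus the intervals of most fold changes were wide, and a missing call does not show that the groups were alike.

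**Figure D1:**
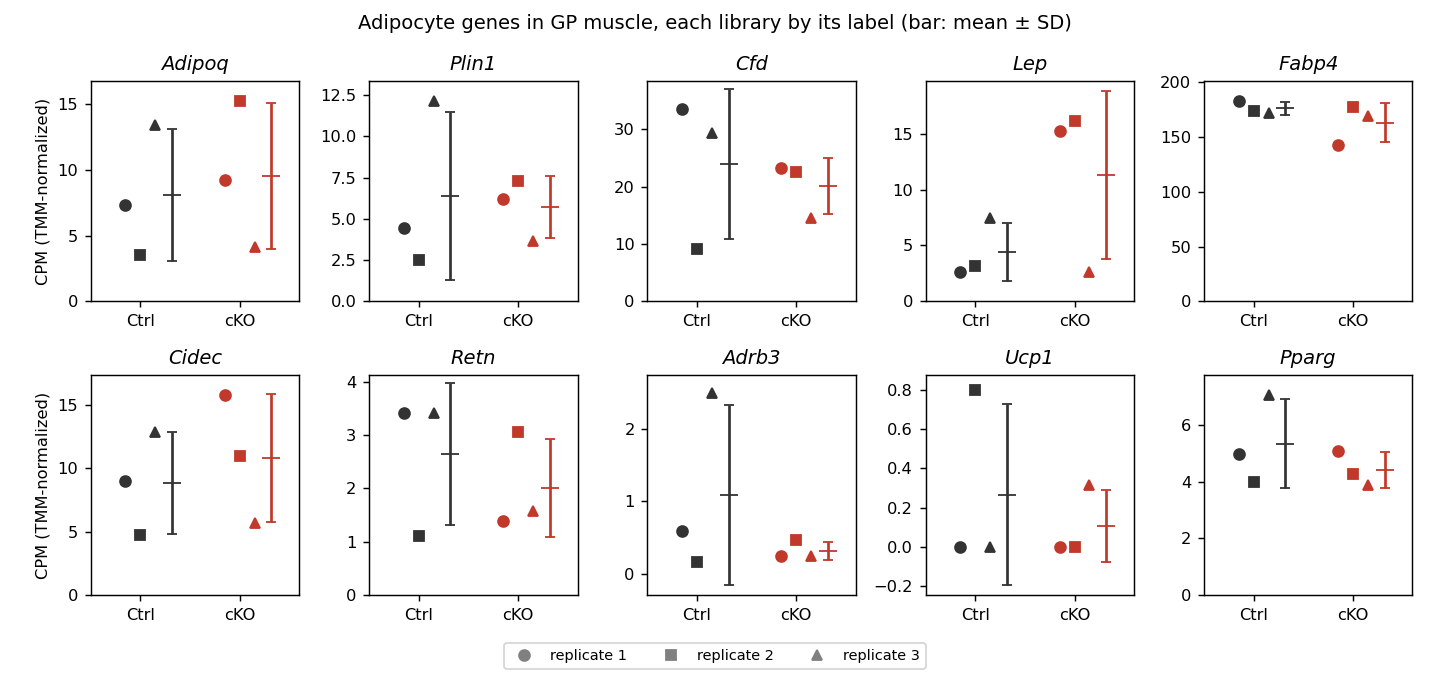
CPM after TMM scaling (y axis, linear) of the 10 adipocyte genes in each of the 6 GP libraries, by label (x axis); the marker shape gives the replicate number, and the bar beside the points is the mean ± SD of 3 libraries. The labelled groups overlap in every panel, Fabp4 varies least, and Ucp1 has counts in only 2 libraries.

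The transcripts differed widely in level. Per kilobase of the transcript with the longest coding sequence, the mean level over the 6 libraries was 189 ± 15.6 CPM per kb (SD, n = 6) for Fabp4, followed by 23.9 ± 9.84 for Cfd, 12.5 ± 5.39 for Cidec and 6.82 ± 3.71 for Adipoq. Each of these 4 exceeded the next gene in the order in 6 of 6 libraries, the last of them being followed by Pparg. Pparg (2.76 ± 0.669 CPM per kb), Lep (2.42 ± 1.94), Plin1 (2.15 ± 1.22) and Retn (2.04 ± 0.952) lay together: Pparg exceeded Lep in 4 of 6 libraries, Lep exceeded Plin1 in 3 and Plin1 exceeded Retn in 2, so their order is within the spread. Retn was above Adrb3 (0.526 ± 0.665 CPM per kb) in 6 of 6 libraries, and Adrb3 was above Ucp1 (0.114 ± 0.199) in 4.

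Promoter sequence is shown for the genes on which the account below turns: Adipoq and Plin1, whose levels followed each other most closely, Lep, which had the largest fold change above 0, and Ucp1, which was counted in the libraries where Adipoq was lowest. Each run is the 100 bases before the annotated start in RefSeq (GRCm38.p6), 5′ to 3′ on the strand of the gene, with matches to the searched motifs in capitals.

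Adipoq, plus strand, chr16:23146436-23146535: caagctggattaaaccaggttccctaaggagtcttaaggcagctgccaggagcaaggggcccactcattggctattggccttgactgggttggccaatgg
Plin1, minus strand, chr7:79732777-79732876: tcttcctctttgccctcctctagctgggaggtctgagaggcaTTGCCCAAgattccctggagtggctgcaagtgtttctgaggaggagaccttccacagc
Lep, plus strand, chr6:29060121-29060220: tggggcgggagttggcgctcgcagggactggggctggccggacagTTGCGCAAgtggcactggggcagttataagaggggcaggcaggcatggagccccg
Ucp1, plus strand, chr8:83290248-83290347: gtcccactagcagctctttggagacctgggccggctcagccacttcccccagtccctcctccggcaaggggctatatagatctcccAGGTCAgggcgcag

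Motifs were searched on both strands in windows from 250 bases before to 50 bases after the start, which RefSeq gave for 8 of the 10 genes as 11 windows. The Lep window held TTGCGCAA, the C/EBP palindrome, beginning 55 bases upstream of the start, a run found in 0.183% of all 32851 promoter windows. The shorter C/EBP core TTNNGCAA, which includes the palindrome, occurred in 10.8% of all windows and, among the adipocyte genes, in those of Lep, Plin1, Cidec and the most downstream of the Pparg starts. AGGTCA, the half-site bound by nuclear receptors, occurred in 16.3% of all windows and lay 14 bases upstream in Ucp1 and in 2 of the Pparg windows. TATAAA was found in 13.6% of all windows and, among these genes, in 1 Pparg window. These matches describe the letters in the windows and not binding.

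Among the genes of the adipocyte's secreted products, adiponectin (Adipoq, chromosome 16, 23146536 to 23158028, plus strand, mm10) is the hormone most particular to fat. It stood at 7.30, 3.52 and 13.4 CPM in Ctrl 1, Ctrl 2 and Ctrl 3 and at 9.20, 15.2 and 4.16 CPM in cKO 1, cKO 2 and cKO 3, the order kept for the genes that follow. Each group held a library near the bottom and a library near the top of the whole range, which spanned 4.33 times. The means were 8.08 ± 5.00 and 9.53 ± 5.55 CPM (SD, n = 3), with a log2 fold change of 0.24 (SE 0.56, 95% interval -1.09 to 1.56, adjusted p = 0.785, exact permutation p = 0.7). The interval spans 0.471 to 2.96 in fold.

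Leptin (Lep, chromosome 6, 29060220 to 29073877, plus strand), the hormone that signals fat stores to the brain, had the largest fold change above 0. It stood at 2.66, 3.18 and 7.44 CPM with the label Ctrl and at 15.2, 16.1 and 2.61 CPM with the label cKO. Thus cKO 1 and cKO 2 lay above all libraries labelled Ctrl, whereas cKO 3 was the lowest of the 6. The means were 4.43 ± 2.62 and 11.3 ± 7.55 CPM (SD, n = 3). The log2 fold change was 1.35 (SE 0.67, 95% interval -0.23 to 2.93), with an unadjusted p of 0.0827 and an adjusted p of 0.183 from edgeR, and the exact permutation p was 0.4. With cKO 3 left out, Lep was called (log2 fold change 1.82, SE 0.41, adjusted p = 0.0406), the only adipocyte gene called under any alternative tried. With any other library left out, the log2 fold change was between 0.99 and 1.95 and did not pass.

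Adipsin (Cfd, chromosome 10, 79890853 to 79892655, plus strand) is complement factor D, a serine protease secreted by fat cells that activates the alternative complement pathway. It stood at 33.5, 9.12 and 29.3 CPM with the label Ctrl and at 23.2, 22.6 and 14.5 CPM with the label cKO. The values labelled cKO all lay inside the range of those labelled Ctrl. Their log2 fold change was -0.26 (SE 0.44, adjusted p = 0.706, exact permutation p = 0.6). Resistin (Retn, chromosome 8, 3655770 to 3660110, plus strand), an insulin-antagonizing hormone of mouse fat, stood at 3.42, 1.11 and 3.42 CPM and at 1.38, 3.06 and 1.57 CPM, respectively. Here, too, the lowest library was Ctrl 2, and the range labelled cKO lay inside the other (log2 fold change -0.40, SE 0.48, adjusted p = 0.576; -0.85 without cKO 2 and -0.17 without Ctrl 1).

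Of the genes for the lipid droplet, perilipin 1 (Plin1, chromosome 7, 79720218 to 79732903, minus strand), the coat protein that gates lipolysis, stood at 4.44, 2.53 and 12.1 CPM with the label Ctrl and at 6.18, 7.32 and 3.66 CPM with the label cKO. Both the highest and the lowest library were labelled Ctrl. The log2 fold change of -0.15 (SE 0.55, adjusted p = 0.861) turned to 0.71 (adjusted p = 0.206) without Ctrl 3, the library in which Plin1 was highest. Cidec (chromosome 6, 113424634 to 113435760, minus strand), which fuses small droplets into a large one, stood at 8.96, 4.75 and 12.9 CPM and at 15.8, 10.98 and 5.73 CPM, respectively. The lowest library of each group was the same as for Adipoq and Plin1, and the log2 fold change was 0.29 (SE 0.44, adjusted p = 0.662).

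FABP4 (Fabp4, chromosome 3, 10204088 to 10208576, minus strand), the fatty acid carrier of adipocytes, is also made by capillary endothelial cells. Fabp4 stood at 183, 174 and 172 CPM with the label Ctrl and at 143, 177 and 169 CPM with the label cKO. In contrast to the other genes it varied by only 1.28 times over the 6 libraries after TMM scaling, and its highest library was Ctrl 1 and its lowest cKO 1. The means were 176 ± 5.88 and 163 ± 17.99 CPM (SD, n = 3), with a log2 fold change of -0.11 (SE 0.10, 95% interval -0.34 to 0.12, adjusted p = 0.444). With total counts in place of TMM the log2 fold change was -0.36 (adjusted p = 0.0675). Its interval, 0.788 to 1.09 in fold, was the narrowest of the 9 genes. The 12 endothelial genes measured beside it, such as Pecam1 and Cdh5, summed to 595 to 667 CPM with the label Ctrl and 578 to 596 CPM with the label cKO, a similarly small range. The part of endothelial cells in the Fabp4 level was not tested.

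The regulator Pparg (chromosome 6, 115360951 to 115490399, plus strand) stood at 4.98, 3.98 and 7.06 CPM with the label Ctrl and at 5.08, 4.29 and 3.86 CPM with the label cKO. The highest library was Ctrl 3, and the others lay close together. The log2 fold change was -0.28 (SE 0.23, 95% interval -0.81 to 0.26, adjusted p = 0.408) and -0.023 (adjusted p = 0.939) without Ctrl 3. Pparg is expressed in macrophages as well. The 10 macrophage and monocyte genes measured summed to 219 to 236 CPM with the label Ctrl and to 108 to 137 CPM with the label cKO, and their part in the Pparg level was not tested.

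The genes for thermogenesis and adrenergic control were the least abundant. The beta3-adrenergic receptor (Adrb3, chromosome 8, 27225776 to 27250616, minus strand) had 23, 7 and 91 counts with the label Ctrl and 9, 18 and 11 counts with the label cKO. The difference in means rests on Ctrl 3, at 2.49 CPM, while the other 5 libraries lay between 0.169 and 0.587 CPM. The log2 fold change of -1.72 (SE 0.89, 95% interval -3.81 to 0.37, adjusted p = 0.198) shrank to -0.21 without that library. Of the exon bases of Adrb3, 839 are shared with Gm45470 on the opposite strand, and the use of strand in counting is not given in the sources used here, so its reads are uncertain.

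Ucp1 (chromosome 8, 83290352 to 83298452, plus strand) had 0, 33 and 0 counts with the label Ctrl and 0, 0 and 14 counts with the label cKO. It was therefore counted in 1 library of each group, Ctrl 2 and cKO 3, and it did not pass the filter. A count of 0 allows for up to 3 counts, by counting error only. Without the filter the adjusted p was 0.631 in edgeR, and it was 0.852 in DESeq2.

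The libraries with Ucp1 counts were also those in which several, though not all, of the white adipocyte genes were lowest. Ctrl 2 and cKO 3 were the lowest 2 of the 6 libraries for 6 of the 9 tested genes, namely for Adipoq, Plin1, Cfd, Cidec, Adrb3 and Pparg. This was so for 2.80% of all genes tested. This pair of libraries was picked from the values of the 10 genes themselves, so the comparison is a description and not a test. For Adrb3 the order of cKO 3 and cKO 1 rests on 11 and 9 counts, respectively. With total counts in place of TMM these 2 libraries were the lowest for 4 of the 9 (Adipoq, Plin1, Cfd and Cidec) and for 2.05% of all genes. Averaged over the 9 genes, the centred log2 CPM was 0.05, -0.82 and 0.77 with the label Ctrl and 0.15, 0.42 and -0.57 with the label cKO. Among 18 other adipocyte genes, of which 16 were tested, 6 had the same 2 lowest libraries: Tusc5, Acvr1c, Slc7a10, Pck1, Mrap and Aoc3. The rest of the 16 did not. Of the 16, 7 had a Pearson's r of at least 0.7 with Adipoq over the 6 libraries, beside 4.03% of all genes. The lowest r were -0.731 for Thrsp and -0.564 for Plin4, while Adig, Car3 and Pnpla3 were at -0.02, 0.0025 and 0.13.

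**Figure D2:**
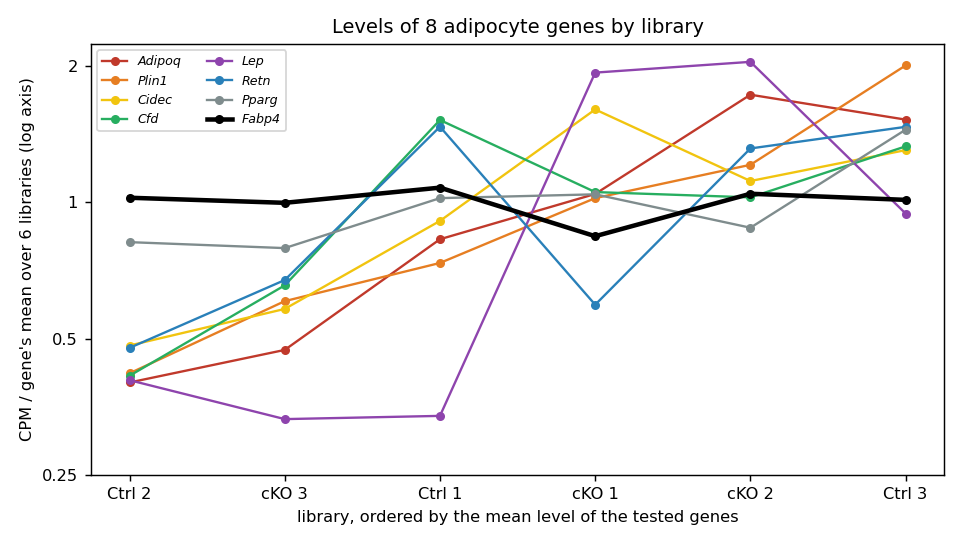
Level of 8 adipocyte genes relative to the mean of the gene over the 6 libraries (y axis, log scale) in each library (x axis, ordered by the mean level of the tested genes); lines join the points of a gene. Most genes are low in Ctrl 2 and cKO 3, whereas Fabp4 stays between 0.842 and 1.08 times its mean.

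Over the 6 libraries the log2 CPM of Plin1 followed that of Adipoq most closely (Pearson's r = 0.918, exact permutation p = 0.0111; Spearman's rho = 0.943, exact permutation p = 0.0167). Adjusted over the 8 relations with Adipoq that were computed, these p were 0.0889 and 0.133, and no other relation had a smaller one. Cidec came next (r = 0.862, rho = 0.771), followed by Lep (r = 0.784, rho = 0.771), Cfd (r = 0.763, rho = 0.486), Retn (r = 0.727, rho = 0.486), Adrb3 (r = 0.675, rho = 0.714) and Pparg (r = 0.635, rho = 0.600). Their exact permutation p were 0.0472 to 0.156 for r and 0.103 to 0.356 for rho, with adjusted values of 0.178 for r and 0.272 to 0.406 for rho. Fabp4 did not follow Adipoq (r = -0.06, rho = 0.0857, exact permutation p = 0.994 and 0.919). Leaving out Ctrl 2 and cKO 3, the libraries farthest from the median of Adipoq, r was 0.781 for Plin1 and 0.646 for Lep but 0.223 for Cidec, 0.246 for Retn, 0.377 for Adrb3, 0.0954 for Pparg and -0.54 for Cfd. For these latter genes the relation to Adipoq did not hold over the 4 libraries left, which also cover a narrower range of Adipoq.

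The proportions among the adipocyte transcripts differed between mice as well. For each Adipoq count there were 0.364, 0.904 and 0.554 Lep counts with the label Ctrl and 1.66, 1.06 and 0.628 with the label cKO. The highest 2 ratios belonged to cKO 1 and cKO 2, whereas cKO 3 lay inside the range labelled Ctrl. Plin1 kept a narrower proportion, at 0.608, 0.719 and 0.904 counts per Adipoq count with the label Ctrl and 0.672, 0.480 and 0.880 with the label cKO. For Fabp4 there were 25, 49.3 and 12.8 counts per Adipoq count, compared with 15.5, 11.6 and 40.7. The ratios of Fabp4 were thus highest in Ctrl 2 and cKO 3, where Adipoq was lowest.

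**Figure D3:**
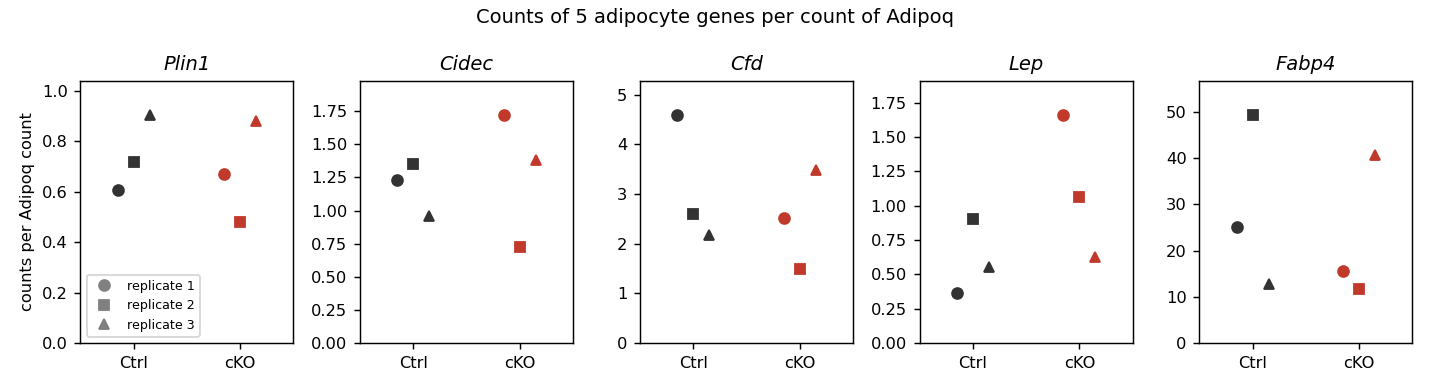
Counts of 5 adipocyte genes per count of Adipoq in each library (y axis), by label (x axis); the marker shape gives the replicate number. The Lep ratio is 1.06 to 1.66 in cKO 1 and cKO 2 and at most 0.904 elsewhere.

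By CPM summed over the 10 genes, Fabp4 made up 73.5%, 85.6% and 66.1% of the total with the label Ctrl and 65.2%, 68.9% and 82.2% with the label cKO. The sum without Fabp4 was 65.9, 29.2 and 88.1 CPM with the label Ctrl and 76.4, 80.1 and 36.6 CPM with the label cKO. Both labelled groups thus held 2 libraries with a higher and 1 library with a lower sum. Myh7, the myosin heavy chain of slow fibres, was at 3676, 1723 and 2219 CPM with the label Ctrl and at 494, 974 and 75.3 CPM with the label cKO. Its part in the adipocyte values was not tested.

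The genes outside the 10 whose log2 CPM followed the mean of the 9 tested genes most closely over the 6 libraries were Rasa2 (r = 0.987), Kdm5d (0.981), Lrba (0.978), Peg3 (0.977) and Nnmt (0.973), followed by Zfp869, Megf9, Cep41, Slc36a2 and Ranbp10 at 0.958 to 0.968. They were picked for this likeness among all genes with a mean CPM of at least 1, so r is a description of 6 libraries. From the lowest to the highest library Rasa2, Kdm5d, Lrba, Zfp869 and Ranbp10 spanned 1.19 to 1.299 times, Peg3, Nnmt, Megf9 and Cep41 spanned 1.85 to 1.98 times, and Slc36a2, an amino acid transporter, spanned 4.36 times. Kdm5d was also the closest to Adipoq alone (r = 0.989), followed by Secisbp2l, Cd1d1 and Zeb2 (0.985 each) and Taz (0.983).

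Of the 16 other adipocyte genes tested, 0 were higher and 2 were lower with the label cKO at an adjusted p under 0.05. Over all genes tested these shares were 12.6% and 11.8%. The median log2 fold change of the 16 was -0.22. Cebpa, the C/EBP factor that maintains adipocyte identity, fell from 14.2, 11.3 and 16.7 CPM to 10.2, 9.22 and 10.04 CPM (log2 fold change -0.52, SE 0.15, adjusted p = 0.0428). Cebpa, which did not reach the fold limit of a call, no longer passed at an adjusted p of 0.05 when Ctrl 1, Ctrl 3 or any library labelled cKO was left out. Car3, the cytosolic carbonic anhydrase III, fell from 3296 to 5059 CPM to 1827 to 2478 CPM (log2 fold change -1.03, SE 0.20, adjusted p = 0.0128). Car3 is abundant in slow fibres too, and the median over 7 slow-fibre genes lay at -2.53, in the same direction. Of these 7, 3 passed an adjusted p of 0.05, and their spread was wide (median biological coefficient of variation 60.6%). The part of slow fibres in the Car3 difference was not tested. Chemerin (Rarres2) and the perilipin Plin4 did not pass (0.05 and 0.20 on the log2 scale).

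**Figure D4:**
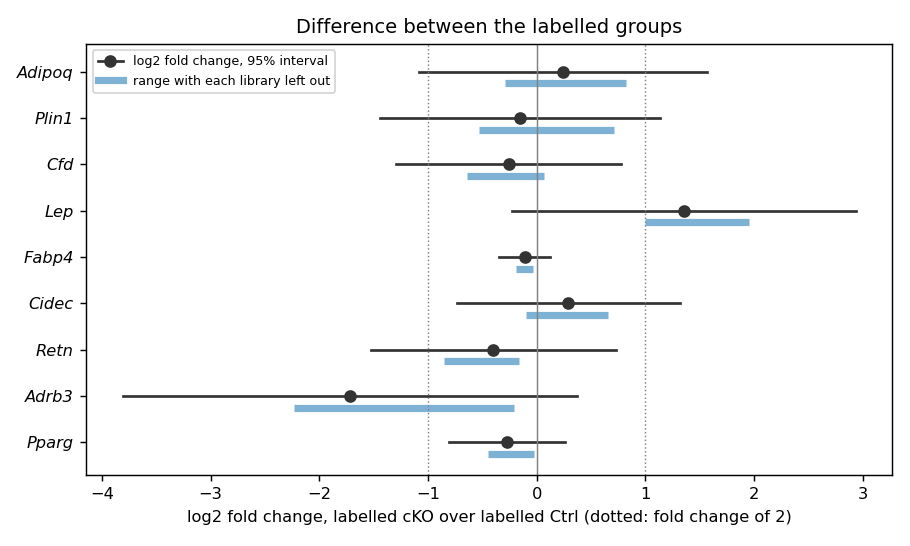
Log2 fold change, labelled cKO over labelled Ctrl (x axis), of the 9 tested adipocyte genes (points) with 95% intervals (lines); blue bars give the range of the fold change with each library left out in turn, and dotted lines mark a fold change of 2. All 9 intervals contain 0, from the narrow interval of Fabp4 (-0.34 to 0.12) to that of Adrb3 (-3.81 to 0.37).

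Genes for triglyceride synthesis and breakdown are expressed by muscle fibres as well. The medians of the muscle fibre and slow-fibre genes were 0.76 and -2.53, and the part of fibres in the triglyceride genes was not tested. Of 20 tested, 4 rose and 2 fell with the label cKO at an adjusted p under 0.05, beside 12.6% and 11.8% of all genes. Glycerol-3-phosphate dehydrogenase (Gpd1; log2 fold change 1.56, SE 0.24, adjusted p = 0.00632), malic enzyme (Me1; 1.599, SE 0.21, adjusted p = 0.00395), lipin 1 (Lpin1; 1.01, SE 0.19, adjusted p = 0.0111) and the lipase activator Abhd5 (0.30, SE 0.06, adjusted p = 0.0158) rose. Fatty acid synthase (Fasn; -0.92, SE 0.26, adjusted p = 0.0402) and acetyl-CoA carboxylase (Acaca; -0.48, SE 0.14, adjusted p = 0.0420) fell. Fasn, Acaca and Abhd5, all under the fold limit, no longer passed when Ctrl 1, cKO 1 or cKO 3 was left out (Fasn also without cKO 2, Acaca also without Ctrl 2 or Ctrl 3), and Abhd5 was at 0.05 (adjusted p = 0.647) with total counts in place of TMM. The median of the 20 was -0.24, since 14 of them had a fold change below 0. The adipose lipases Lipe and Pnpla2 were at -0.20 and -0.23 and did not pass.

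The 16 tested genes of brown and beige adipocytes, which were listed beside Ucp1, had a median of -0.45. Beside 12.6% and 11.8% of all genes, 0 of them rose and 4 fell with the label cKO at an adjusted p under 0.05. These were Zic1 (log2 fold change -2.13, adjusted p = 0.0207), Ppara (-1.39, adjusted p = 0.0214), Prdm16 (-0.70, adjusted p = 0.0191) and Cpt1b (-0.80, adjusted p = 0.0397). PRDM16 is a co-regulator of the brown fat programme, while PPARalpha and CPT1B serve fatty acid oxidation in muscle fibres too. The median of the slow-fibre genes was -2.53, and the part of fibres in the differences of Ppara and Cpt1b was not tested. Without cKO 1 and without cKO 3 none of these 4 genes passed; Ppara, Prdm16 and Cpt1b also did not pass without Ctrl 1 or Ctrl 2, nor Cpt1b without cKO 2. Cidea, a droplet protein of brown fat, was at 1.84, 1.45 and 0.766 CPM with the label Ctrl and at 0.536, 0.883 and 0.205 CPM with the label cKO, and the groups overlapped (adjusted p = 0.108). Cidea was thus not highest where Ucp1 was counted.

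Of 21 regulators of adipogenesis, 5 were higher and 3 lower with the label cKO at an adjusted p under 0.05. The shares of all genes tested were 12.6% and 11.8%, and the median of the 21 was -0.13. Rxra, the obligate partner of PPARgamma, rose by 0.65 on the log2 scale (SE 0.08, adjusted p = 0.00365), and Ncoa1, a nuclear receptor coactivator, rose by 0.58 (adjusted p = 0.00442). The lipogenic factor Srebf1 rose by 0.89 (adjusted p = 0.00918), and the zinc finger genes Zfp467 and Zfp521, which favour and restrain adipogenesis, respectively, rose by 1.37 and 0.54 (adjusted p = 0.00369 and 0.0126). Sox9, a factor of early progenitors and cartilage, had the largest difference, from 19.96 to 30.4 CPM down to 3.53 to 4.35 CPM (log2 fold change -2.62, adjusted p = 0.000627). GATA factors that hold back adipocyte differentiation fell, Gata2 by 0.43 and Gata3 by 1.26 on the log2 scale (adjusted p = 0.0205 and 0.0375). Neither Gata2 nor Gata3 passed without Ctrl 1, Ctrl 2, cKO 1 or cKO 3. Gata3, with 6 to 23 counts, passed in 5 of 13 alternatives and failed also without cKO 2, without the filter (adjusted p = 0.0627) and in DESeq2 (adjusted p = 0.0928). Zfp521 did not pass without cKO 3 or with total counts in place of TMM (0.29, adjusted p = 0.143). Cebpb and Cebpd, the C/EBP factors that act before Pparg, did not pass (-0.69 and 1.05).

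Paralogs of the 10 genes are largely expressed outside fat. Of 17 tested, 1 rose and 3 fell with the label cKO at an adjusted p under 0.05, beside 12.6% and 11.8% of all genes. Among the uncoupling proteins Ucp3, the form of muscle, was the most abundant and rose from 84.5 to 118 CPM to 121 to 316 CPM (log2 fold change 1.24, SE 0.33, adjusted p = 0.0342). Ucp3 passed without cKO 2 but not when any other library was left out. Ucp2, a form of many tissues including immune cells, fell from 26.1 to 35.2 CPM to 13.2 to 16.2 CPM (-1.05, SE 0.14, adjusted p = 0.00428). Of the PPAR genes Ppara fell, as given above, whereas Ppard did not pass (-0.0014, SE 0.12, adjusted p = 0.994). C1qtnf7, a relative of adiponectin, fell by 1.43 (adjusted p = 0.00962), while the more abundant C1qtnf9 did not pass (-0.24). Fabp3, Plin4 and Retnla, the most abundant in their families, were at -0.62, 0.20 and -0.64, and none of these passed.

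Receptors and partners of the adipocyte hormones act in the muscle and its other cells. Of 15 tested, 3 rose and 6 fell with the label cKO at an adjusted p under 0.05, beside 12.6% and 11.8% of all genes. The median was -0.28. Both adiponectin receptors rose with the label cKO, Adipor1 from 273 to 332 CPM to 428 to 520 CPM (log2 fold change 0.60, SE 0.12, adjusted p = 0.0122) and Adipor2 from 151 to 162 CPM to 173 to 240 CPM (0.42, SE 0.12, adjusted p = 0.0476). Their adaptor Appl1 rose by 0.59 (SE 0.10, adjusted p = 0.00963), and T-cadherin (Cdh13), which binds adiponectin at the cell surface, fell by 0.52 (SE 0.08, adjusted p = 0.00728). With total counts in place of TMM, Adipor2 was at 0.16 (adjusted p = 0.245) and Appl1 at 0.33 (adjusted p = 0.0536), and Adipor2 passed without cKO 2 but not when any other library was left out. The leptin receptor Lepr was at 2.80 to 3.22 CPM with the label Ctrl and at 2.96 to 5.204 CPM with the label cKO (0.51, SE 0.22, adjusted p = 0.132), and Stat3, which acts below it, fell by 0.48 (adjusted p = 0.0110). Cap1 and Tlr4, both described as resistin receptors, fell by 0.62 and 2.19 (adjusted p = 0.00368 and 0.00369). Of the complement genes linked to adipsin, properdin (Cfp) fell by 0.71 and C3ar1 by 1.00 (adjusted p = 0.00942 and 0.0149), whereas C3 and Cfb did not pass. C3ar1 no longer passed without cKO 3. Cfp, C3ar1 and Tlr4 are also genes of myeloid cells, and in the same libraries 8 of 10 macrophage and monocyte genes fell (median -0.87, Adgre1 -0.82 with adjusted p = 0.0433), of which C1qa, C1qb and Lyz2 also passed with each single library left out; the part of these cells in the differences was not tested.

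Of 12 genes of the fibro-adipogenic progenitors, from which intramuscular adipocytes arise, 0 rose and 5 fell at an adjusted p under 0.05 (median -0.32). Over all genes tested 12.6% rose and 11.8% fell. The fold change was above 0 on the log2 scale for 3 of the 12, Smoc2 (0.29), Dcn (0.20) and Col1a1 (0.08), which did not pass. Ly6a fell by 1.13, Dpt by 0.58, Lum by 0.72, Col3a1 by 1.06 and Pi16 by 0.86 on the log2 scale (adjusted p = 0.00521, 0.00620, 0.0145, 0.0281 and 0.0284). Pi16 and Col3a1 no longer passed without Ctrl 1, cKO 1 or cKO 3 (Pi16 also without Ctrl 2, Col3a1 also without Ctrl 3), nor did Lum without Ctrl 2. Pdgfra, which defines these cells, was at 29.7 to 40.2 CPM and 28.1 to 34.01 CPM and did not pass (-0.18, SE 0.13, adjusted p = 0.357). Of the 12 endothelial genes 0 passed in either direction, with a median of -0.07, or -0.33 with total counts (Pecam1 -0.17, adjusted p = 0.175). Of 10 muscle fibre genes 8 rose and 1 fell with the label cKO (median 0.76), and skeletal actin (Acta1) was at 29980 to 40530 CPM. Without cKO 1 the rises of Ckm, Myh4, Tnnt3, Tnni2, Mylpf and Actn3 and the fall of Myh1 no longer passed.

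**Figure D5:**
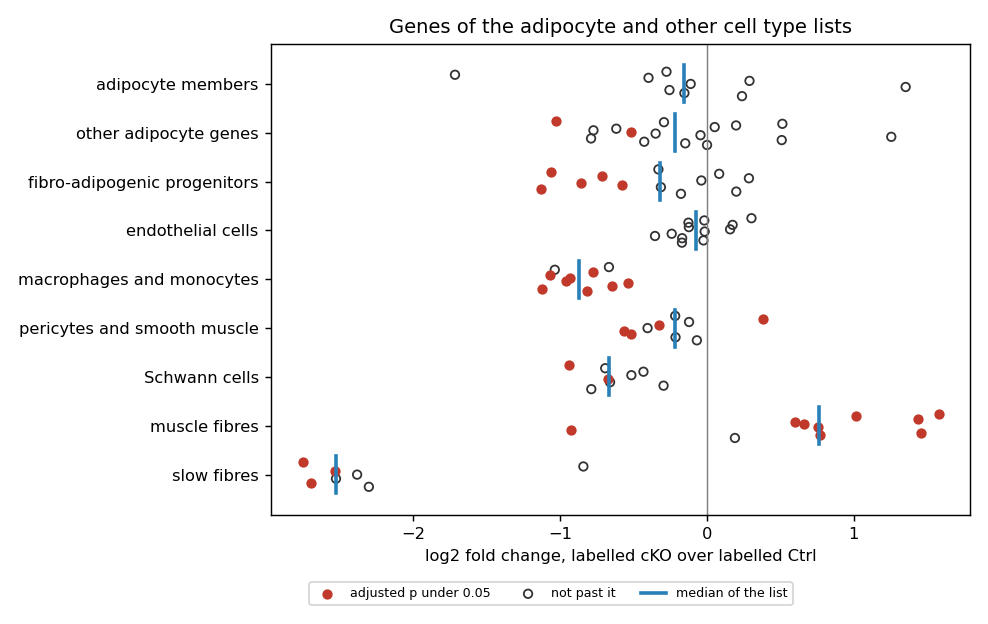
Log2 fold change, labelled cKO over labelled Ctrl (x axis), of single genes (points) in the adipocyte and other cell type lists (y axis); filled points have an adjusted p under 0.05 and the bar is the median of the list. No point among the 9 tested adipocyte genes is filled, and the list medians run from -2.53 (slow fibres) to 0.76 (muscle fibres).

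Fat beside a dissected muscle can carry lymph node or skin with it. The B-cell gene Cd79a was at or under 0.128 CPM in every library, Ccl21a was listed at 0, and the epidermal keratins Krt5 and Krt14 were listed at 0 in all 6. Krt10, a further keratin of the skin list, was at 2.09 to 4.23 CPM. The 6 globin genes were also listed at 0 in every library, so a listed 0 need not mean that a transcript was absent. The presence of fat from outside the muscle was not tested.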

How the data were processed

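GP muscle mRNA of 6 mice was sequenced in paired-end mode, and conditions were taken from the labels. The authors deposited counts per gene without normalization, 1 table per library, made with FastQC 0.11.8, Trimmomatic 0.39, HISAT2 2.1.0 on mm10 and featureCounts 1.6.2; the annotation and the use of strand are not given in the sources used here. The spread between replicates exceeded counting error (chi-square per degree of freedom 29.5 to 101), so no 2 tables were alike within sampling noise. The test was that of edgeR 4.0.16 in R 4.3.3 (TMM, filterByExpr, quasi-likelihood F test without a block, Benjamini-Hochberg adjustment over all 14180 genes tested), and SE were derived from the F statistic. DESeq2 1.42.0 was an alternative, and both tools were tested on simulated data. Calls required an adjusted p below 0.05 together with a change of more than 2 times, as in the study. For the 10 genes mean CPM was also compared with an exact permutation test (two-sided), in which 3 libraries against 3 reach p = 0.1 at the least. Correlations used log2 CPM with a prior count of 2. Positions and lengths come from GENCODE M21, promoters from RefSeq.

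The members and the gene lists were chosen with earlier results of these data known. Named are the 10 genes, paralogs, receptors and partners past an adjusted p of 0.05 or most abundant in their family, up to 6 genes past it in other lists, the defining cell type markers and the 10 genes nearest in pattern. Some genes that this rule selects are left out of the text. Others were named after their values were seen, as genes that did not pass. Alternatives were DESeq2's size factors, total counts, upper-quartile factors, a minimum of 10 counts in every library, DESeq2's test, no filter, the mouse number as a block, a robust fit, no fold limit, glmTreat against a fold change of 1.2, and each library left out. Intervals and the floor of 3 counts for a 0 cover counting error or the spread of these libraries only.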

Additional observations from a re-analysis of the deposited data

How the results depend on the processing

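The number of adipocyte genes called was 0 under every alternative except leave-one-out, where it ranged from 0 to 1, the 1 being Lep without cKO 3. Genes called in all numbered 858, and 3454 without the fold limit, 1420 with glmTreat and 580 to 1035 with single libraries left out. With total counts the median log2 fold changes moved to -0.47 (other adipocyte genes), -0.50 (triglyceride genes), -0.68 (brown and beige), -0.37 (regulators), -0.39 (paralogs), -0.52 (receptors and partners), -0.57 (progenitors), -1.12 (macrophages) and 0.50 (muscle fibres), beside a shift of all genes to -0.27. With single libraries left out the triglyceride median ranged from -0.40 (without cKO 2) to -0.088 (without Ctrl 1), that of the regulators from -0.27 (without cKO 2) to -0.058 (without cKO 1) and that of the other adipocyte genes from -0.31 (without cKO 2) to -0.030 (without cKO 3). With total counts 157 genes were higher and 1023 lower with the label cKO, in place of 302 and 556. Uncalled fold changes crossed 0 on the log2 scale for Adipoq, Plin1, Cfd and Cidec. With single libraries left out Adipoq ranged from -0.29 (without cKO 2; -0.12 without Ctrl 2) to 0.82, Plin1 from -0.53 to 0.71 (without Ctrl 3; 0.079 without cKO 3), Cfd from -0.64 to 0.067 (without Ctrl 1) and Cidec from -0.094 (without cKO 1; -0.01 without Ctrl 2) to 0.66. With the replicate block Plin1 was at 0.093. The cause was not tested. Lep, Fabp4, Retn, Adrb3 and Pparg kept their sign under all alternatives that tested them. Of 37 genes past an adjusted p of 0.05 in the other adipocyte, triglyceride, brown and beige, regulator, paralog, receptor and progenitor lists, 18 passed under all alternatives run for single genes (glmTreat was not among them), between 21 and 33 with a library left out and 25 with the replicate block; 0 changed sign. Of 27 such genes in the remaining cell type lists, 5 passed under these same alternatives (C1qa, C1qb, Lyz2, Pmp22 and Lyve1) and 0 changed sign.

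No pairing by mouse number was seen (correlations of same-numbered deviations from group means 0.08, -0.22 and -0.002). Of 6 libraries, 1 correlated best with its own number. With 3 libraries per group this check cannot exclude a shared litter or processing day. With the replicate block 684 genes and 0 of the adipocyte genes were called. Depth limits Adrb3, with 7 to 91 counts, and Ucp1; Adrb3 was dropped by the minimum of 10 counts.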

Other observations

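Genes of other cells in the same libraries gave the following values, each as labelled cKO over labelled Ctrl. Of 8 Schwann cell genes 0 rose and 2 fell at an adjusted p under 0.05, Pmp22 by 0.68 and Ncmap by 0.94 on the log2 scale (adjusted p = 0.00869 and 0.0216 from edgeR), and the median was -0.67. Of 9 genes of pericytes and smooth muscle 1 rose, the potassium channel subunit Abcc9 (0.38, adjusted p = 0.0464; 0.12 and 0.324 with total counts in place of TMM), and 3 fell, smooth muscle myosin Myh11 (-0.57), Cspg4 (-0.52) and Tagln (-0.32), with adjusted p of 0.0196, 0.0189 and 0.0235. Ncmap, Abcc9, Myh11, Cspg4 and Tagln no longer passed when Ctrl 1 or Ctrl 2 was left out. The pericyte marker Rgs5 was at -0.07 (adjusted p = 0.568).

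Of the lymphatic and lymph node genes 8 of 9 were found and 2 were tested: Lyve1, a marker of lymphatic endothelium that macrophages also express, fell by 0.99 (adjusted p = 0.0113), and Prox1 was at -1.15 (adjusted p = 0.117). Of 9 blood genes the 6 globin genes were listed at 0 in every library, and Alas2, the erythroid enzyme of haem synthesis, was at 3.97 to 8.76 CPM with the label Ctrl and 5.56 to 7.18 CPM with the label cKO (-0.16, adjusted p = 0.720). Of 5 skin genes only Krt10 was tested (0.09, adjusted p = 0.844). The causes of these differences were not tested.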
